A study of Mus musculus with 9 samples.

Results

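Transcripts of 10 circadian clock genes were measured in the mediobasal hypothalamus of mice after adult deletion of Snord116, a cluster of small nucleolar RNAs of the imprinted Prader-Willi locus. The genes were taken by symbol, and all 10 of 10 had an entry among the 13588 entries of the deposited table: Arntl and Clock, which encode the activators of the clock, Per1, Per2, Per3 and Cry1, which encode its repressors, Nr1d1, Nr1d2 and Ciart, which encode further negative regulators, and Dbp, an output gene. All 9 mice were adult males of the Snord116 floxed line on a C57/BL6 background, homozygous for the floxed allele and kept under 12 hours of light per day. They were injected stereotaxically into the mediobasal hypothalamus at 10 to 12 weeks of age. Of these, 3 received AAV-GFP, in which a CMV promoter drives the fluorescent protein, and 6 received AAV-Cre, in which a CAG promoter drives the recombinase that deletes Snord116. The promoters thus differed between the vectors, and neither is specific for a cell type. The authors also give a higher titer for the AAV-Cre vector than for the AAV-GFP vector. Vector dose, promoter and deletion of Snord116 therefore cannot be told apart in comparisons of AAV-Cre with AAV-GFP mice. Brains were frozen 10 weeks after injection, regions with Cre protein in adjacent sections, or matching regions of AAV-GFP mice, were laser captured, and a library was made from 500 pg of RNA per mouse.

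Of the 6 AAV-Cre mice, 3 carry a weight label of obese, meaning more than 140% of the weight before surgery, and 3 a label of nonobese. The sample titles contradict these labels, since the titles that hold the word obese belong to the samples labelled nonobese. Each subset goes here by its weight label, while the comparison of all AAV-Cre with AAV-GFP mice is the same either way. The hour at which brains were collected is not given in the sources used here.

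The mammalian clock is a feedback loop of transcription. The product of Arntl, BMAL1, pairs with CLOCK and binds E-box motifs, which drives the Per and Cry genes, Nr1d1, Nr1d2, Dbp and Ciart. PER and CRY proteins then return to the nucleus and repress BMAL1 and CLOCK, while the proteins of Nr1d1 and Nr1d2, REV-ERB alpha and REV-ERB beta, bind elements called RRE and repress Arntl and, in part, Clock and Cry1. In tissues with a running clock, Arntl therefore peaks at about the opposite time of day to Dbp, Nr1d1 and the Per genes, and Cry1 peaks later than the other E-box targets. In the hypothalamus the suprachiasmatic nucleus holds the master clock, and nuclei of the mediobasal hypothalamus hold clocks that respond to feeding.

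Promoter windows from RefSeq (GRCm38.p6, from 250 bases before to 50 bases after a start site) were matched for 9 of the 10 genes, with 13 windows in all. Per2 had no entry. Exact matches on either strand were searched for the E-box CACGTG, the E'-box CACGTT, the D-box TTATGTAA that DBP and its relatives bind, the RRE TAGGTCA and the cAMP response element TGACGTCA. The E-box was in 3 of the 13 windows (1 each of Per1, Ciart and Cry1), against 7.17% of 32544 mouse promoter windows. The E'-box was in 2 of the 13 (those of Nr1d1 and Cry1, with 4.71% of all windows), and the D-box in 1, that of Per3 (0.931%). The RRE was in 1, a window of Arntl (2.61%), and the cAMP element in none of the 13 (1.80%). The 5 windows shown were chosen because each input of the loop is seen in them: E-boxes in Ciart, an E'-box in Nr1d1, both in Cry1, D-boxes in Per3 and the RRE in Arntl. Capitals mark the matched motifs (AACGTG is the E'-box read on the other strand), and all sequences are written 5′ to 3′ on the strand of the gene. Ciart lies at chr3:95882179-95882478 (minus strand) with its motifs starting at -116, -58 and -44 from the start site, Nr1d1 at chr11:98775328-98775627 (minus strand) with its motif at -28, and Cry1 at chr10:85185005-85185304 (minus strand) with the E'-box at -79 and the E-box at -60. Per3 lies at chr4:151044616-151044915 (minus strand) with D-boxes at -205 and -158, and Arntl at chr7:113207261-113207560 (plus strand) with the RRE at 31 bases into the transcript. A match describes the sequence and is not evidence of binding.
Ciart: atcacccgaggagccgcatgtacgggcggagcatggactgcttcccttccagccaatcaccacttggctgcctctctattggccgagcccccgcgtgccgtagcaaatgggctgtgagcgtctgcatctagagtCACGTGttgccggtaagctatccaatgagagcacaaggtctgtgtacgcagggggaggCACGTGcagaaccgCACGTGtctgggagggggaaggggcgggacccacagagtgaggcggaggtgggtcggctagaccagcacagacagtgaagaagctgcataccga
Nr1d1: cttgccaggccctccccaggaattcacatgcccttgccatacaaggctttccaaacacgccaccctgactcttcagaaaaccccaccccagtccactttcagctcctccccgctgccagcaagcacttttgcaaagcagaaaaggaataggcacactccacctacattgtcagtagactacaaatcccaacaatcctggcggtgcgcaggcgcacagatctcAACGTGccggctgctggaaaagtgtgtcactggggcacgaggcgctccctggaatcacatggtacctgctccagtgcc
Cry1: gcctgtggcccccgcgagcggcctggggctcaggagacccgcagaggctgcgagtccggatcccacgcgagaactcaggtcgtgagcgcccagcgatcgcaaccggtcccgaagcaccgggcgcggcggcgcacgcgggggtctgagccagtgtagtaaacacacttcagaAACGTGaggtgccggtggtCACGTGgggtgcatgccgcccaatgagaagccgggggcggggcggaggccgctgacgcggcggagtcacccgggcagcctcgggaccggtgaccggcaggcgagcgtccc
Per3: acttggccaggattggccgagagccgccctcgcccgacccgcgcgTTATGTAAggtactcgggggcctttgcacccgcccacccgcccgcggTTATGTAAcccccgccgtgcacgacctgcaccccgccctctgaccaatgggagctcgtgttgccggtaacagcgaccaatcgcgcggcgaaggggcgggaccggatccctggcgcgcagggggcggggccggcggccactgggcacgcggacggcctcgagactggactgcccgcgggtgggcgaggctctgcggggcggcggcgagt
Arntl: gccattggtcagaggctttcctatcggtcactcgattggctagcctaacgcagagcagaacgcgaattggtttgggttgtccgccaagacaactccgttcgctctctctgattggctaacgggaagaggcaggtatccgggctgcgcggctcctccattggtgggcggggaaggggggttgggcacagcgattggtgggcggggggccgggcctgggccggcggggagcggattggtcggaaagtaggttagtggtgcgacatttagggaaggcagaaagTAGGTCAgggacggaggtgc

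The unit of the deposited table is called signal here: the reads of a gene relative to a scaled library size, on the scale of CPM. Libraries held 3929672 to 5766994 reads on the entries of the table, so that 3 reads, taken as the floor, correspond to a signal between 0.525 and 0.786 (counting error only). Reads of the vector genes followed the vector labels, with Cre at 0 to 5 reads in AAV-GFP libraries and 1011 to 37704 in AAV-Cre libraries, and Gfp at 317 to 350 and 0 reads. Snord116 itself was not analysed here. In micropunches of a separate set of mice, the authors report a reduction of Snord116 after AAV-Cre and not a complete loss. A pair of libraries stood apart: in AAV-Cre labelled obese replicates 1 and 3, the summed signal of 10 markers of infiltrating immune cells (9 with an entry) was 3818 and 6116, against 86 in replicate 2, 35 to 43 in the nonobese subset and 7 to 12 in AAV-GFP mice. In these same 2 libraries the astrocyte markers summed to 1092 and 1495 (730 in replicate 2 and 480 to 658 in the other groups), and the 4 neuron markers to 1292 each (1641 to 1960). Agrp, a peptide gene of arcuate feeding neurons, had 0 reads in both. The 7 arcuate markers with an entry, Agrp among them, nevertheless summed there to 291 and 239, within the 163 to 421 of AAV-GFP mice. These 2 libraries also had the lowest Cre signal of the AAV-Cre libraries, 1330 and 235, against 4644 to 8557 in the others. Of 10 markers of the suprachiasmatic nucleus, 5 had an entry, and Vip, Avp, Vipr2, Nms and Grp, its defining peptides and receptor, had none. The 5 with an entry (Prok2, Lhx1, Six6, Rgs16 and Syt10) summed to 40.8 to 58.8 in AAV-GFP mice. In the nonobese subset they summed to 32.5 to 46.3, and in the obese subset to 47.2 to 68.5. No entry had fewer than 50 reads in total, so a gene without an entry may still have had some reads. The ventromedial marker Nr5a1 had 0 reads in AAV-GFP replicate 3, AAV-Cre labelled nonobese replicate 3 and AAV-Cre labelled obese replicates 1 and 3, and the 4 ventromedial markers summed there to 13.6, 11.3, 17.5 and 19.1, against 60.9 to 146 in the others. In such tissue samples, fewer cells of a type and less RNA per cell cannot be told apart.

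All 10 genes are protein coding, and their signal per kilobase of exon over the 9 libraries ran in the order Nr1d2 13.3 ± 4.09, Nr1d1 11.6 ± 3.15, Dbp 9.75 ± 3.76, Clock 8.25 ± 2.10, Per1 8.18 ± 1.24, Per3 7.11 ± 1.79, Cry1 5.01 ± 2.54, Per2 4.44 ± 1.65, Arntl 3.12 ± 1.39 and Ciart 2.34 ± 1.63 (SD, n = 9). No gap between neighbours in this order was larger than the larger SD of the pair. Ciart, with 0 to 49 reads per library, was the least deeply measured, and Clock, with 397 to 835 reads, the most.

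The genes differed in their spread between libraries, and those of lowest signal spread the most. On the log2(signal + 1) scale the SD over the 9 libraries was 0.21 for Per1, and 5.26% of all entries tested had a smaller one. Clock (0.35), Per3 (0.38), Nr1d2 (0.40) and Nr1d1 (0.42) followed, then Dbp (0.54), Arntl (0.61), Per2 (0.69), Cry1 (0.80) and Ciart (1.16). Counting error alone would give an SD between 0.06 for Clock and 0.19 for Cry1 among the 9 genes other than Ciart. Log2 fold changes (log2 FC) below are on the same scale, which understates the change of a gene with low signal such as Ciart.

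**Figure D1:**
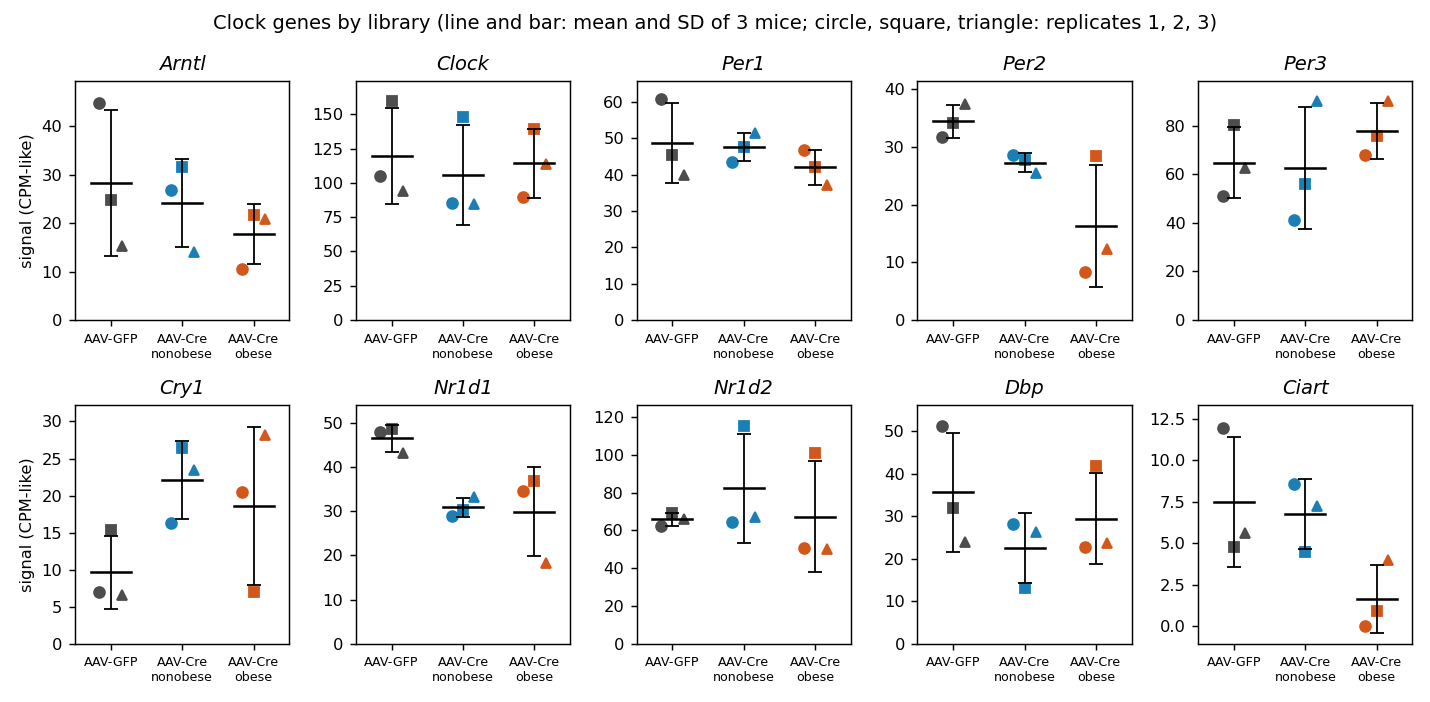
Signal (CPM-like, linear axis) of each clock gene in every library, with circles, squares and triangles for replicates 1, 2 and 3 of each group and the mean and SD of 3 mice as a line and bar. The 3 AAV-GFP libraries lie above all 6 AAV-Cre libraries for Nr1d1 and Per2, and Per2 is lowest in AAV-Cre labelled obese replicates 1 and 3.

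Nr1d1 was lower after AAV-Cre than after AAV-GFP in 6 of 6 mice. Its signal was 47.9, 48.6 and 43.1 in AAV-GFP mice, 29.0, 30.4 and 33.3 in the nonobese subset of AAV-Cre mice, and 34.6, 36.8 and 18.4 in the obese subset. The groups did not overlap, and both subsets lay below the controls, with AAV-Cre labelled obese replicate 3 the lowest. The means were 46.5 ± 2.99 (SD, n = 3) and 30.4 ± 6.54 (SD, n = 6). The log2 FC was -0.63 (SE 0.29, 95% CI -1.23 to -0.02), with an unadjusted limma P of 0.0434, an FDR of 0.999 over the 13506 entries tested, and P = 0.0238 in an exact 2-sided permutation test, where 0.0119 is the smallest P that 6 against 3 mice allow. The log2 FC was -0.58 (SE 0.34) in the nonobese and -0.68 (SE 0.34) in the obese subset, against the same controls, and the subsets differed by 0.10 (95% CI -0.60 to 0.80). In the obese subset it ran from -0.85 without its replicate 2 to -0.37 without its replicate 3. Without the 2 libraries high in immune markers the log2 FC was -0.51 over the 4 AAV-Cre mice left. Exons of Nr1d1 (ENSMUSG00000020889), at chr11:98767932-98775333 on the minus strand, share 263 bases with exons of Thra, a thyroid hormone receptor gene on the opposite strand, and whether reads were counted by strand is not given in the sources used here. Thra had a signal of 304 to 499, with 333, 448 and 452 in AAV-GFP mice, and its groups overlapped.

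Per2, a repressor gene (ENSMUSG00000055866) at chr1:91415982-91459324, was also lower in 6 of 6 AAV-Cre mice. Its signal was 31.7, 34.1 and 37.5 in AAV-GFP mice, 28.5, 27.8 and 25.4 in the nonobese subset, and 8.32, 28.4 and 12.3 in the obese subset. The groups did not overlap, and the 2 lowest values were those of the libraries high in immune markers. The means were 34.4 ± 2.92 (SD, n = 3) and 21.8 ± 9.04 (SD, n = 6). The log2 FC was -0.76 (SE 0.40, 95% CI -1.59 to 0.07, limma FDR 0.999, exact permutation P = 0.0952), and without those 2 libraries it was -0.31.

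Cry1, a repressor gene (ENSMUSG00000020038) at chr10:85131700-85185064, went the other way. Its signal was 6.98, 15.3 and 6.60 in AAV-GFP mice, 16.3, 26.5 and 23.5 in the nonobese subset, and 20.5, 7.04 and 28.1 in the obese subset. All AAV-Cre mice but labelled obese replicate 2 were above every AAV-GFP mouse. The means were 9.63 ± 4.93 (SD, n = 3) and 20.3 ± 7.76 (SD, n = 6), and the log2 FC was 0.98 (SE 0.48, 95% CI -0.01 to 1.98, limma FDR 0.999, exact permutation P = 0.0595). Without the 2 libraries high in immune markers it was 0.81.

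Ciart, whose protein represses CLOCK and BMAL1 (ENSMUSG00000038550), lies at chr3:95878503-95882251. Its signal was 11.97, 4.79 and 5.63 in AAV-GFP mice, 8.57, 4.45 and 7.26 in the nonobese subset, and 0, 0.908 and 3.95 in the obese subset, which came from 0, 4 and 17 reads. The 3 mice labelled obese were below all others. In these 3 mice the oligodendrocyte markers also summed to less (689 to 824, against 944 to 2114 in the other 6) and those of endothelium (86.7 to 115, against 49.6 to 73.0) and astrocytes (730 to 1495, against 480 to 658) to more, and the part of these cells in the values was not tested. With both subsets together the log2 FC was -0.99 (SE 0.77, limma FDR 0.999, exact permutation P = 0.25), and it ran from -1.24 without AAV-Cre labelled nonobese replicate 1 to -0.59 without AAV-Cre labelled obese replicate 1.

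Of the activators, Arntl (ENSMUSG00000055116, chr7:113207465-113314126) had a signal of 44.9, 24.9 and 15.3 in AAV-GFP mice, 26.8, 31.7 and 14.1 in the nonobese subset, and 10.6, 21.8 and 20.9 in the obese subset. The AAV-GFP mice alone spanned nearly the whole range. Its log2 FC was -0.38 (SE 0.41, 95% CI -1.23 to 0.48). Clock (ENSMUSG00000029238, chr5:76209868-76304792) had a signal of 105, 159.9 and 94.2 in AAV-GFP mice, 85.2, 148 and 84.7 in the nonobese subset, and 89.5, 139 and 114 in the obese subset, with a log2 FC of -0.12 (SE 0.22, 95% CI -0.59 to 0.35). In each group replicate 2 had the highest Clock, and the groups overlapped.

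Dbp, which encodes a transcription factor that binds D-boxes, had the signal 51.1, 32.0 and 23.9 in AAV-GFP mice, 28.2, 13.1 and 26.2 in the nonobese subset, and 22.7, 41.8 and 23.7 in the obese subset. Its groups overlapped, with a log2 FC of -0.45 (SE 0.36, 95% CI -1.20 to 0.30), which was -0.16 without AAV-GFP replicate 1 and -0.70 without AAV-GFP replicate 3. Exons of Dbp (ENSMUSG00000059824), at chr7:45705088-45710203, share 539 bases with those of Sphk2, a sphingosine kinase gene on the opposite strand with a signal of 3.67 to 20.9, so reads of the pair may be shared.

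Per1 (ENSMUSG00000020893, chr11:69095217-69109960), Per3 (ENSMUSG00000028957, chr4:151003652-151044665) and Nr1d2 (ENSMUSG00000021775, chr14:18204054-18239127) differed least between AAV-Cre and AAV-GFP mice, beside Clock. Per1, a period gene induced by light and by glucocorticoids, ran from 39.8 to 60.8 in AAV-GFP mice and from 37.2 to 51.4 in AAV-Cre mice (log2 FC -0.10, SE 0.25, 95% CI -0.62 to 0.42). Per3 ran from 51.1 to 80.2 and from 41.1 to 90.1 (log2 FC 0.09, SE 0.26, 95% CI -0.45 to 0.62). Nr1d2 ran from 62.3 to 69.3 and from 49.9 to 115.5 (log2 FC 0.11, SE 0.26, 95% CI -0.43 to 0.65), and so did not share the lower level of its paralog Nr1d1 in all 6 AAV-Cre mice. Differences of any log2 size within these intervals remain compatible with the values of these 9 mice.

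Counted together, 0 of the 10 clock genes passed an FDR under 0.1 for AAV-Cre against AAV-GFP by limma, where 0.0222% of the 13506 entries passed, and 1, Nr1d1, had an unadjusted P under 0.05, as did 3.14% of all entries. The edgeR and DESeq2 tests on recovered reads also called 0, in this and in the other 3 comparisons. Both AAV-Cre subsets lay wholly below AAV-GFP for 2 of 10, Nr1d1 and Per2, against 1.08% of all entries. The log2 FC was below 0 for 7 of 10, with a median of -0.25, against 53.4% and -0.03 over all entries.

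**Figure D2:**
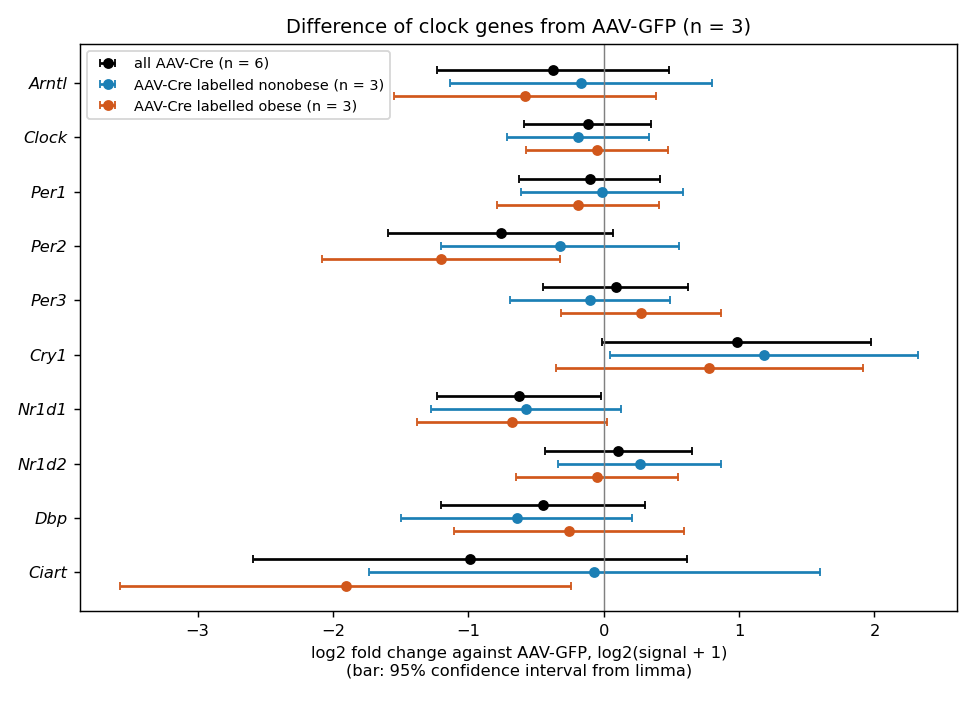
Log2 fold change of each clock gene against the 3 AAV-GFP mice on the log2(signal + 1) scale, for all 6 AAV-Cre mice (black), the 3 labelled nonobese (blue) and the 3 labelled obese (orange), with 95% confidence intervals from limma as bars. Nr1d1 is at -0.63, -0.58 and -0.68, and Per2 at -0.76, -0.33 and -1.20.

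The subsets by weight label were next compared with the same 3 AAV-GFP mice, which both comparisons share. In mice labelled obese, Per2 had a log2 FC of -1.20 (SE 0.43, 95% CI -2.08 to -0.32, limma FDR 0.308) and Ciart of -1.91 (SE 0.81, limma FDR 0.417). By limma 0 of 10 were called (0.555% of all entries), 2 of 10 had an unadjusted P under 0.05 with a lower level (4.78%), and 3 of 10, Per2, Ciart and Nr1d1, lay wholly below AAV-GFP (7.27%). An exact permutation test of 3 against 3 mice cannot give a 2-sided P under 0.1, the value reached by these 3. Replicate 2 had the lowest immune markers of the subset, at 86 against 7 to 12 in AAV-GFP mice. Leaving out replicate 2 brought Per2 to a log2 FC of -1.66 with a limma FDR of 0.0229, in a fit that called 5.27% of all entries. Replicate 2 alone, against the same AAV-GFP mice, gave a log2 FC of -0.27 for Per2, a value of 1 mouse. Cry1 in this subset had a log2 FC of 0.78 (SE 0.55), and -0.31 with replicate 2 alone.

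In mice labelled nonobese the immune markers summed to 35 to 43, against 7 to 12 in AAV-GFP mice. In this subset Cry1 was above and Nr1d1 and Per2 were below every AAV-GFP mouse. Cry1 had a log2 FC of 1.18 (SE 0.55, 95% CI 0.05 to 2.32, limma FDR 0.999), Nr1d1 of -0.58 (SE 0.34) and Per2 of -0.33 (SE 0.43), while Ciart was at -0.07 (SE 0.81). The limma FDR called 0 of 10 (0.0148% of all entries), the unadjusted P under 0.05 was met by 1 of 10 (2.27%), and 3 of 10 did not overlap with AAV-GFP (9.72%). Set directly against mice labelled obese, those labelled nonobese had more Ciart, with a log2 FC of 1.84 (SE 0.81, 95% CI 0.17 to 3.50, limma FDR 0.379), and Per2 differed by 0.87 (SE 0.43, 95% CI -0.01 to 1.75, limma FDR 0.443). No clock gene passed in that comparison, in which 0.948% of all entries did, and 1 of 10, Ciart, had an unadjusted P under 0.05 (11.4%) and did not overlap (13.3%).

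The comparison was extended to 24 other clock genes with an entry. None passed an FDR under 0.1 by limma in any of the 4 comparisons. An unadjusted P under 0.05 was found for 0 of 24 in all AAV-Cre mice (3.14% of all entries) and 0 of 24 in those labelled nonobese (2.27%), for 3 of 24 in those labelled obese (9.88%), and for 4 of 24 between the subsets (11.4%). Against AAV-GFP, their median log2 FC in all AAV-Cre mice was -0.12, with 16 of 24 below 0. In mice labelled obese the lowest P belonged to Tef, a D-box binding relative of Dbp, then Bhlhe41, which encodes the repressor DEC2, and Nampt, an E-box target that encodes the rate-limiting enzyme of NAD salvage. Tef had a signal of 132, 188 and 169 in AAV-GFP mice, 138, 171 and 149.6 in the nonobese subset, and 79.6, 127 and 77.6 in the obese subset. It lay wholly below AAV-GFP in the latter (log2 FC -0.80, SE 0.22, limma FDR 0.154), as did Bhlhe41 (-0.66, SE 0.28, limma FDR 0.415). Nampt was at 117 in both libraries high in immune markers and at 35.9 in the other mouse labelled obese, against 37.4, 51.3 and 43.7 in AAV-GFP mice (log2 FC 0.84, SE 0.39, limma FDR 0.467).

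Between the subsets, Tef (log2 FC 0.72, limma FDR 0.169), Nampt (-1.09, limma FDR 0.250) and Rorb (-0.65, limma FDR 0.372), which encodes an activator at RREs, had the lowest P of the 24. Tef and Per2 were lowest, and Nampt was highest, in the 2 libraries high in immune markers. The part of these cells in the values was not tested.

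**Figure D3:**
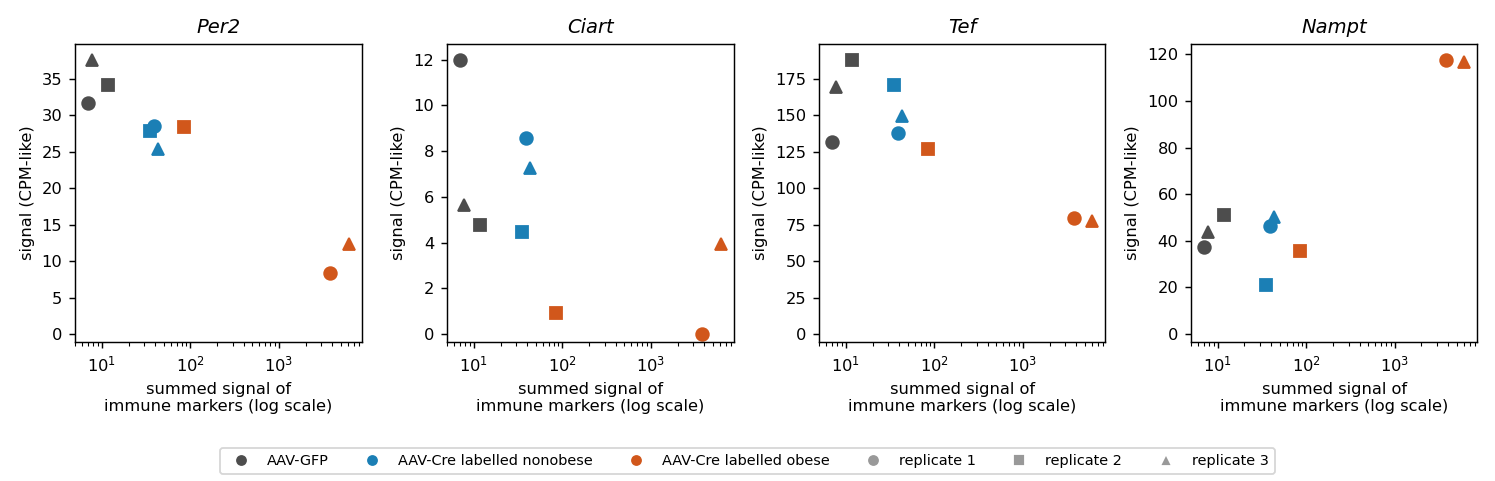
Signal (CPM-like) of Per2, Ciart, Tef and Nampt against the summed signal of the immune cell markers (log scale) in 9 libraries, colored by group. The 2 libraries at 3818 and 6116 on the horizontal axis have the lowest Per2 and Tef and the highest Nampt, whereas Ciart is also low in the third mouse labelled obese.

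Genes that respond to glucocorticoids were counted because the adrenal rhythm acts on Per1 and others of the loop. Of 15, 13 had an entry, and 0 had an unadjusted limma P under 0.05 in any of the 4 comparisons, where 3.14% of all entries did for all AAV-Cre mice, 9.88% for those labelled obese, 2.27% for those labelled nonobese and 11.4% between the subsets. Over all AAV-Cre mice their median log2 FC was 0.14, and the lowest limma P belonged to Fkbp5 (log2 FC -0.64), Mt2 (0.57) and Tsc22d3 (-0.45), all with an FDR of 0.999.

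The relation of the activator and the repressor arm was read across the 9 libraries, as Pearson's r of log2(signal + 1) with an exact 2-sided permutation P, over all 45 pairs of the 10 genes. Since the hour of collection is not known here, these relations describe how the mice differed and give no phase. Of the 45 pairs 26 were positive, with a median r of 0.15 and a range of -0.69 to 0.65. The exact permutation P was under 0.05 for 3 pairs, and 0 held after Benjamini-Hochberg adjustment, the lowest adjusted value being 0.668 for r and 0.387 for Spearman's rho.

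Arntl and Dbp, which peak at about opposite times in a running clock, had r = 0.31 (exact permutation P = 0.429, rho = 0.40, P = 0.291). The sign turned to -0.30 without the 2 libraries farthest from the median of Arntl, AAV-GFP replicate 1 and AAV-Cre labelled obese replicate 1, and r was 0.57 without the 2 farthest from the median of Dbp, AAV-GFP replicate 1 and AAV-Cre labelled nonobese replicate 2. The sign of the relation thus rests on which samples are left out. With the 7 E-box targets other than Cry1 (Per1, Per2, Per3, Dbp, Ciart, Nr1d1 and Nr1d2) Arntl had a median r of 0.37, positive for 6 of 7, the exception being Per3 at -0.50. With Cry1, counted apart here, the r of Arntl was -0.23. Arntl and Nr1d1, gene and repressor, were at r = 0.16 (exact permutation P = 0.692). The 21 pairs among the 7 targets had a median r of 0.16, with 14 positive.

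Clock was positive with 4 of the 7 targets, with a median r of 0.15. Cry1 had a negative r with 6 of 7, with a median of -0.15. Of these, the r with Per1 (-0.13) was 0.90 without AAV-GFP replicate 1 and AAV-Cre labelled obese replicate 3, and the r with Ciart (-0.11) was 0.37 within the 6 AAV-Cre mice. The r of Cry1 was -0.69 with Dbp (exact permutation P = 0.0348, rho = -0.65, P = 0.0666) and -0.68 with Nr1d1 (exact permutation P = 0.0355, rho = -0.78, P = 0.0172). Without the 2 libraries farthest from the median of the other gene these were -0.51 and -0.80, with group means removed -0.56 and -0.49, and within the 6 AAV-Cre mice -0.79 and -0.55. Both were thus negative under each of these changes, and neither passed adjustment over the 45 pairs. Per2 and Cry1 had rho = -0.80 (exact permutation P = 0.0138) and r = -0.56 (P = 0.120). The third pair, Per2 and Ciart, had r = 0.65 (exact permutation P = 0.0445, rho = 0.57, P = 0.121), which was 0.10 without AAV-Cre labelled obese replicates 1 and 3 and 0.12 with group means removed, and so rests on those mice.

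**Figure D4:**
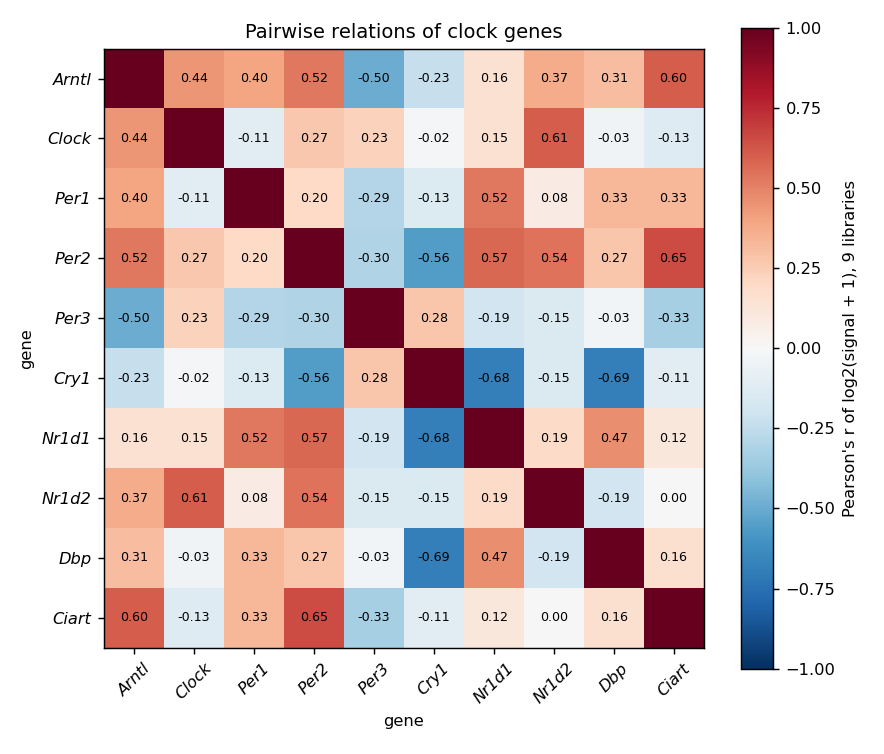
Pearson's r of log2(signal + 1) over 9 libraries for every pair of clock genes (color and number, from -1 in blue to 1 in red). Cry1 has its lowest values with Dbp (-0.69) and Nr1d1 (-0.68), and Arntl is positive with 6 of the 7 E-box targets other than Cry1.

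**Figure D5:**
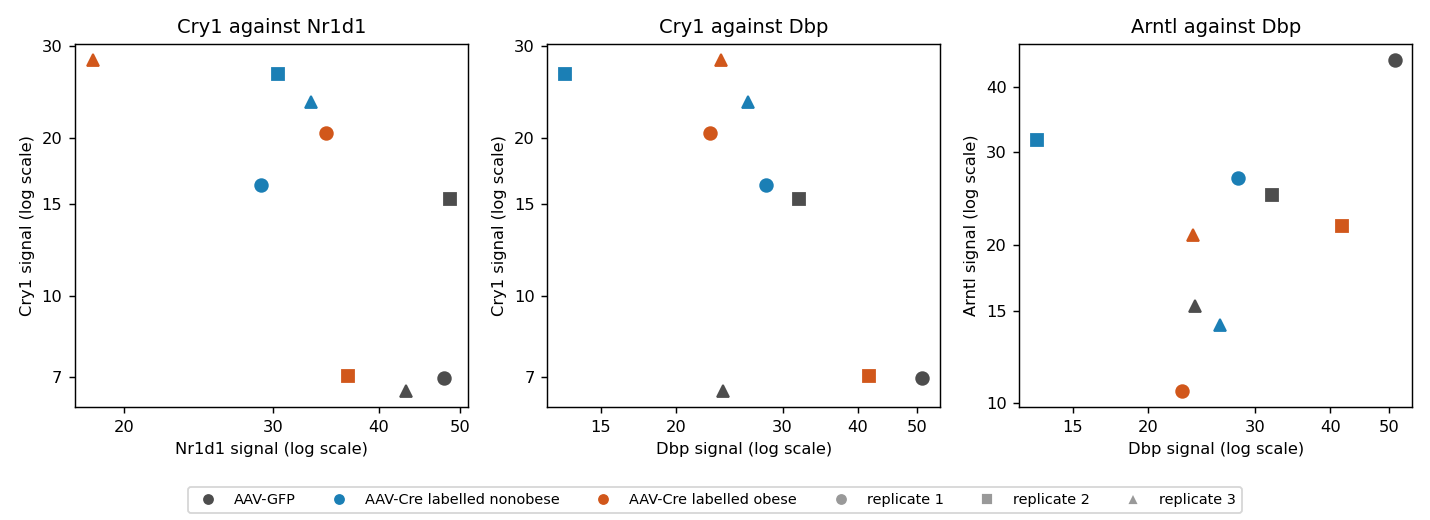
Signal of Cry1 against Nr1d1, Cry1 against Dbp and Arntl against Dbp (both axes log scale), with each point a library, colored by group and shaped by replicate. The 3 lowest Cry1 values (6.60 to 7.04) belong to AAV-GFP replicates 1 and 3 and AAV-Cre labelled obese replicate 2, and Arntl and Dbp are both highest in AAV-GFP replicate 1.

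Likeness to Dbp was also ranked over the 13505 other entries tested, by Pearson's r over the 9 libraries and with no test. The most like were Coq7 (r = 0.96), Nubpl (0.94), Fam173b (0.94), Aar2 (0.93) and Adck5 (0.92), and the most opposite Lactb (-0.93), Tsc1 (-0.92), 4932438A13Rik (-0.91), Cfap161 (-0.91) and Hectd3 (-0.90). None of these 10 is a clock gene of the lists used. Among the 10 clock genes, the nearest to Dbp were Nr1d1, at rank 1701 (r = 0.47), and Per1, at rank 2882 (r = 0.33). Cry1 was at rank 367 from the opposite end. Ranks of the other clock genes are not given here.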

How the data were processed

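RNA of laser-captured mediobasal hypothalamus was sequenced from 9 mice. Per the labels, the authors used CASAVA 1.7, TopHat2 2.0.11, HTSeq, edgeR and limma with GRCm38; the strand setting of the counting is not given in the sources used here. The authors deposited a signal for each gene, namely its reads relative to a library size scaled by TMM, on the scale of CPM. The design had assumed CPM, and the same test was used for signal. Divided by the signal of 1 read, 100% of values came out whole in each library (tolerance 0.02 reads), with a median total of 4611358 reads, and the recovered reads went into count tests.

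Tests used limma 3.58.1 under R 4.3.3 on log2(signal + 1), with a variance trend and Benjamini-Hochberg FDR under 0.1, over the 13506 entries that reached a signal of 1 in 3 or more libraries, in a fit of 2 groups for all AAV-Cre mice and of 3 groups for the subsets. All 10 clock genes passed this filter. Single genes were also compared by exact permutation tests. Symbols were matched for 13446 of 13586 Ensembl identifiers, and positions and exon lengths come from GENCODE M21. Alternatives were other pseudocounts, filters, scalings and fits, edgeR 4.0.16, DESeq2 1.42.0 and leaving out each mouse. Leaving out the 2 libraries high in immune markers together was added after seeing the data. Members and lists were chosen with earlier results of these data known. The text names all 10 clock genes, up to 3 other clock genes per comparison with the lowest P under 0.05, the 3 glucocorticoid-responsive genes with the lowest P, and the 5 genes most like and most opposite to Dbp. The procedure was tested on simulated data.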

Additional observations from a re-analysis of the deposited data

Results flagged for a closer look

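Within the 6 AAV-Cre mice, Nr1d1 had a sample far from the others. AAV-Cre labelled obese replicate 3 had a signal of 18.4, and the next lowest mouse 29.0. On the log2(signal + 1) scale the gap between them was 0.658 of the range of the 6 values. This was above Dixon's 95% critical value for that number of samples. The test was run on this scale only. Of the 10 clock genes examined 1 was flagged, and chance flags about 1 in 20, or 0.5 of 10. Without this mouse the log2 FC of Nr1d1 for AAV-Cre against AAV-GFP was -0.49. Of 10 differences between the subsets by weight label, 0 passed an FDR under 0.1 in limma, and 1, that of Ciart, had an unadjusted P under 0.05.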

How the results depend on the processing

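In 9 mice the 95% interval of Ciart in mice labelled obese ran from -3.57 to -0.24, and the number of mice and the few reads of Ciart limit the precision. The count of clock genes called was 0 in all 4 comparisons under every pseudocount, filter, scaling, fit and count test tried. Leaving out single mice gave 0 to 1 for mice labelled obese against AAV-GFP and 0 to 1 between the subsets, and the gene was Per2 without AAV-Cre labelled obese replicate 2 (log2 FC -1.66, FDR 0.0229, in a fit that called 5.27% of all entries, and 1.34, FDR 0.0708, where 6.72% were called). The relation of Arntl to Dbp ran from r = -0.13 (without AAV-GFP replicate 1) to 0.80 (without AAV-Cre labelled nonobese replicate 2) and was -0.30 without the 2 libraries farthest from the median of Arntl. Without the 2 libraries high in immune markers, the log2 FC of Per3 for all AAV-Cre mice was -0.014 and that of Cry1 in mice labelled obese -0.31. Under quantile normalization that of Ciart in mice labelled nonobese was 0.033. The cause of these turns was not tested. Fewer mice were used for those of Per3 and Cry1, and all 9 mice for that of Ciart. With a single mouse left out, sign changes were seen, with ranges for all AAV-Cre mice of -0.23 to 0.066 (Per1), -0.067 to 0.25 (Per3), -0.73 to 0.010 (Arntl), -0.27 to 0.11 (Clock) and -0.031 to 0.21 (Nr1d2), for Ciart in mice labelled nonobese of -0.30 to 0.29, and between the subsets of -0.14 to 0.79 (Cry1) and -0.20 to 0.28 (Nr1d1). For all AAV-Cre mice the log2 FC of Nr1d1 kept its sign in every alternative, from -0.69 to -0.49, and that of Ciart ran from -1.65 with a pseudocount of 0.1 to -0.48 with one of 5.

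Replicate numbers come from the titles and name different animals. Deviations of libraries of the same number correlated at -0.02 to 0.09, and those of different numbers at -0.09 to 0.04. All were under the 0.1 taken to mark pairs, so no pairing was used. However, Clock was highest in replicate 2 of each group, as were the summed ventromedial markers (146 in AAV-GFP, 117 in labelled nonobese and 131 in labelled obese mice). The authors describe the AAV-GFP controls as matched by region, and whether the replicate numbers follow that matching was not tested. With the replicate number as a block, 0 clock genes were called, entries called for mice labelled obese went from 75 to 200 and between the subsets from 128 to 271, and with the means of each number removed the r of Arntl and Dbp was 0.28. Over the whole table, entries called ranged from 1 to 9 for all AAV-Cre mice (3 as reported) and from 1 to 6 for mice labelled nonobese (2 as reported). For mice labelled obese, leaving out single mice gave from 0.0594% of entries called (without AAV-GFP replicate 1) to 5.27% (without AAV-Cre labelled obese replicate 2). With all mice in, they ranged from 5 without a variance trend to 275 by DESeq2 for mice labelled obese, and from 15 to 398 by edgeR's likelihood ratio test between the subsets, where leaving out single mice gave 2 to 906.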
